A study of Ciona robusta with 133 samples.

Results

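The step of the A-line neural side from the 112-cell stage to the 6-row neural plate stage was followed by comparing A9.13+A9.14 cells with A8.7 cells of the ascidian Ciona robusta. Its members were the 13 libraries that the labels give as A8.7 or A9.13+A9.14, of 133 libraries in the series. A8.7 was represented by 7 single cells from 5 embryos (numbered 2, 3, 5, 6 and 7), and both sides were taken from embryos 2 and 7. A9.13+A9.14 was represented by 6 single cells from 2 embryos, which the labels number 1 and 2 with an asterisk, with 2 cells from embryo 1 and 4 cells from embryo 2. Each cell was isolated by hand from an embryo with no treatment or genetic change named in the labels, and its cDNA was amplified and sequenced on its own. The name A9.13+A9.14 covers a pair of cells per side, and the labels give a plate column for each library but not which of the named cells it holds. Because cells of 1 embryo share their source, the counts of a cell type were added up within each embryo, and n below counts embryos.

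In ascidian embryos the cleavage pattern is invariant, and cells carry the names of Conklin's system, in which A denotes the anterior vegetal lineage and a the anterior animal lineage. The A-line neural cells separate from notochord precursors during cleavage, under FGF signalling, and then form the posterior rows of the neural plate, a grid of rows and columns that rolls up into the neural tube. By textbook fate maps they contribute to the ventral and lateral parts of the nerve cord. Notochord is the fate of A8.5 and of its daughters A9.9+A9.10, and epidermis that of a8.22 and its daughters a9.43+a9.44. The a-line neural side, a8.19 and a9.37+a9.38, contributes to more anterior parts of the nervous system.

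The embryos of the 112-cell stage were not those of the neural plate stage, so the stage and the set of embryos cannot be told apart in any value of the step. A8.5 was taken from the same embryos as A8.7, and A9.9+A9.10 from both embryos of A9.13+A9.14 and 1 more. Total counts per library ran from 6591812 to 9398794 in A8.7 (median 8474109) and from 2485834 to 6465256 in A9.13+A9.14 (median 6065980), against 1452103 to 16599891 in the whole series. Both libraries of A9.13+A9.14 embryo 1 were the shallowest of the 13. Genes with a count numbered 9957 to 10855 in A8.7 and 10358 to 10994 in A9.13+A9.14, so the ranges overlapped. Levels are given as CPM, the read count over the scaled library total. Correlations between libraries had a lower median across the step than within either group. Over log2 CPM (prior count 2), Pearson's r was 0.694 to 0.792 (median 0.742) for the 42 pairs across the step. For cells of different embryos of 1 group r was 0.738 to 0.853 in A8.7 (median 0.795) and 0.796 to 0.832 in A9.13+A9.14 (median 0.813). These correlations are across genes, which are not independent replicates. The 15287 gene models carry KH identifiers that the files do not pair with gene names, and 0 of them were found in the reference table. The cell type names could therefore not be checked against marker genes, no list of pathway genes could be counted, and at most 2 identifiers per direction are given for the step.

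Between A8.7 and A9.13+A9.14, 162 of 12078 genes tested changed, 1.34% of them. Of these, 86 genes were higher in A9.13+A9.14 (0.712% of genes tested) and 76 were lower (0.629%). Changes were moderate for most of the called genes, with a median log2 fold change of 1.68 among the higher and -1.72 among the lower genes. The test was edgeR's quasi-likelihood test over embryo sums with Benjamini-Hochberg adjustment, at an adjusted p below 0.05, and the spread was estimated over A8.7, A9.13+A9.14, A8.5 and A9.9+A9.10 (15 embryo samples). In all, 1524 genes had an unadjusted p below 0.05, and the median log2 fold change over all genes tested was 0.02. The count rests on the A9.13+A9.14 embryos, since it was 23 without embryo 1 and 17 without embryo 2, and all of those 23 and 17 genes were among the 162. Without A8.7 embryo 6 it was 105. The count also moved with the tool. DESeq2 called 597 genes, of which 41.5% were higher, and limma voom 750, of which 71.6% were higher, against 53.1% with edgeR, and 154 genes were called by all 3 tools, 83 higher and 71 lower.

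**Figure D1:**
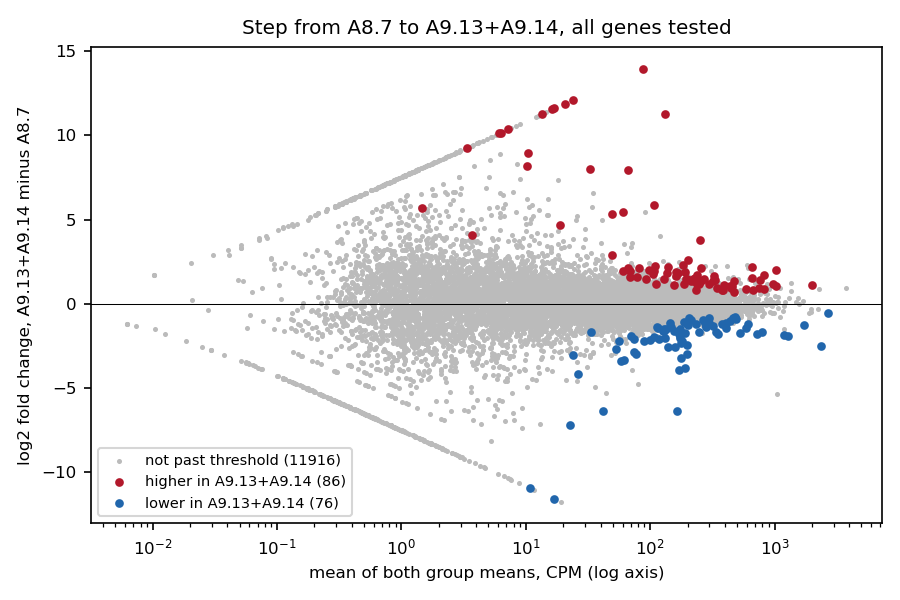
Log2 fold change from A8.7 to A9.13+A9.14 (vertical axis) against the mean of the group means in CPM (horizontal log axis), 1 point per gene tested. The 86 genes called higher and 76 called lower are coloured, and the straight edges of the cloud are genes with no count in 1 of the groups.

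The higher genes stood at a median of 80.2 CPM in A8.7 and 288 CPM in A9.13+A9.14, and the lower genes at 283 and 76.8 CPM. The genes tested as a whole had medians of 33.7 and 34.7 CPM. These levels are not corrected for gene length, so they compare samples and not genes. Of the 86 higher genes 76 rose by more than 2-fold, 32 by more than 4-fold and 21 by more than 16-fold. Of the 76 lower genes 68 fell by more than 2-fold, 30 by more than 4-fold and 6 by more than 16-fold. Over all 12078 genes tested, 3718 changed by more than 2-fold in either direction, 1601 by more than 4-fold and 687 by more than 16-fold. The call itself favours large changes. Genes near absence on the low side were more frequent among the higher than among the lower genes. Of the 86 higher genes 17 stood below 1 CPM in A8.7, including 10 without a count there, against 1449 and 255 of all 12078 genes tested. Among the lower genes 3 stood below 1 CPM in A9.13+A9.14 and 2 had no count there, against 1318 and 303 of all genes tested. In the single cells, 81 of the 86 higher genes had a count in all 6 A9.13+A9.14 libraries, and 76 of the 76 lower genes had a count in all 7 A8.7 libraries. Of all 12078 genes tested, 8677 had a count in all A9.13+A9.14 libraries and 8167 in all A8.7 libraries. Detection on the side where a called gene is high is largely set by the call. Of the lower genes 69 had a count in all 6 A9.13+A9.14 libraries.

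Every embryo of A9.13+A9.14 lay above every embryo of A8.7, or below it, for all 162 called genes, and for 23.8% of all genes tested. The test favours genes with a small spread between embryos and the called genes stand at higher levels, so the following values describe the lists only. The A9.13+A9.14 embryos differed by less than 2-fold for 74 of the 86 higher genes and 70 of the 76 lower genes, with median absolute log2 ratios of 0.25 and 0.22. Over all genes tested, 9394 of 12078 differed by less than 2-fold, with a median of 0.41. Embryo 1 was the higher one for 30 of the 86 and 34 of the 76 genes, and for 5283 of the 12078.

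KH.S567.5 had the largest fitted rise among genes whose higher group averaged at least 5 CPM. It had no count in any of the 5 embryos of A8.7 and stood at 178 and 172 CPM in embryos 1 and 2 of A9.13+A9.14. Every plate-stage cell carried it, at 125 to 214 CPM per library with a median of 175 CPM, and none of the 7 A8.7 libraries had a read. The mean rose from 0 to 175 ± 4.58 CPM (SD, n = 2), at least 3291-fold against a floor of 3 counts over the A8.7 embryos (edgeR adjusted p = 0.00125). In the notochord-fated cells of the same stages it stood at 0 CPM in A8.5 (n = 5) and 11.6 ± 7.49 CPM in A9.9+A9.10 (n = 3), so the A9.13+A9.14 embryos lay above all 3 of these. The call held in all 7 fits without 1 embryo, with an adjusted p of up to 0.0312.

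KH.C13.24 likewise had no count in the 5 A8.7 embryos and stood at 28.5 and 67.2 CPM in embryos 1 and 2 of A9.13+A9.14. Its single cells ran from 29.1 to 88.2 CPM with a median of 53.9 CPM, and all 6 had reads. The mean of 47.8 ± 27.3 CPM (SD, n = 2) was at least 899-fold higher than in A8.7 (edgeR adjusted p = 0.00451). Without A9.13+A9.14 embryo 2, which stood at the higher level, the level was 28.5 CPM and the adjusted p 0.0859. The notochord-fated cells reached a similar level, from 0 CPM in A8.5 to 47.3 ± 9.76 CPM in A9.9+A9.10.

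KH.C9.766 was lost over the step. It stood at 20.6, 14.7, 34.4, 66.8 and 33.0 CPM in A8.7 embryos 2, 7, 3, 5 and 6, whereas neither embryo of A9.13+A9.14 had a read. All 7 A8.7 libraries carried it, at 12.4 to 67.0 CPM with a median of 20.7 CPM. The fall from 33.9 ± 20.2 CPM (SD, n = 5) was at least 345-fold against the floor over the A9.13+A9.14 embryos (edgeR adjusted p = 0.00805). It stood at 20.7 ± 4.27 CPM in A8.5 and 1.07 ± 1.50 CPM in A9.9+A9.10.

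KH.C5.507 stood at 9.99, 9.23, 40.7, 14.9 and 33.4 CPM in the same order of A8.7 embryos and had no count in A9.13+A9.14. The lowest A8.7 library held 7.43 CPM, the median 11.8 CPM and the highest 41.1 CPM, so the cells of this stage differed several-fold among themselves and none lacked the transcript. The fall from 21.6 ± 14.5 CPM (SD, n = 5) was at least 221-fold (edgeR adjusted p = 0.00805). The notochord-fated cells went from 27.1 ± 15.8 CPM in A8.5 to 0.109 ± 0.123 CPM in A9.9+A9.10. Of KH.C9.766 and KH.C5.507, each lost its call without either embryo of A9.13+A9.14, at adjusted p values of up to 0.240.

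The earlier A-line cells A5.1, A6.2 and A7.4, of the 16-, 32- and 64-cell stages, took no part in the test of the step and show the levels from which the called genes came. Most genes called in either direction were already present at 16 cells. Of the 86 higher genes 74 stood at 1 CPM or more in A5.1 (86.0%), 7 stayed below 1 CPM from A5.1 to A7.4 (8.14%) and 5 first reached it in A6.2 or A7.4. Of the 76 lower genes 75 stood at 1 CPM or more in A5.1 (98.7%), and KH.C5.507 was the 1 that stayed below until A7.4. Among all genes tested 82.4% reached 1 CPM in A5.1 and 9.55% stayed below to A7.4, so the higher genes lay near that background.

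The median level of the higher genes was 87.2 CPM in A5.1, 133 CPM in A6.2, 128 CPM in A7.4, 75.5 CPM in A8.7 and 265 CPM in A9.13+A9.14, with all A-line samples scaled together. The lower genes had medians of 281, 166, 206, 267 and 71.0 CPM in the same order, and the genes tested as a whole 31.8, 34.4, 33.1, 31.8 and 32.0 CPM. The plate-stage mean lay above the means of all 3 earlier cell types for 82 of the 86 higher genes (95.3%, against 34.9% of all genes tested). It lay below them for 67 of the 76 lower genes (88.2%, against 32.6%). The plate-stage levels were used to call these genes, so the shares describe the lists and test nothing.

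**Figure D2:**
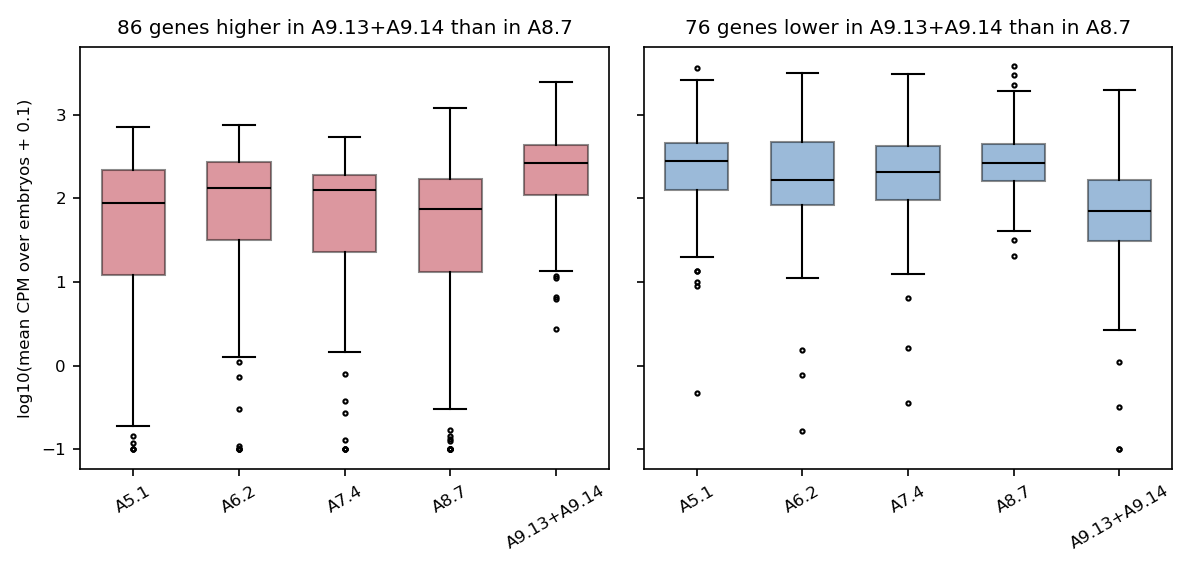
Mean CPM over embryos, as log10 of CPM + 0.1 (vertical axis), of the 86 higher genes (left) and 76 lower genes (right) in the A-line neural side from A5.1 to A9.13+A9.14. Boxes show quartiles and the median over genes; the medians move from 75.5 to 265 CPM and from 267 to 71.0 CPM over the last step.

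The named genes did not follow 1 course. KH.S567.5 averaged 0.0200 CPM in A5.1, 1.18 ± 2.35 CPM in A6.2 and 43.4 ± 26.3 CPM in A7.4 (SD, n = 5, 6 and 4), before the 0 CPM of A8.7 and 162 ± 6.64 CPM of A9.13+A9.14 on this scale. KH.C13.24 averaged 1.56 ± 1.05, 3.34 ± 2.34 and 3.38 ± 3.04 CPM in A5.1, A6.2 and A7.4, then 0 and 44.0 ± 24.6 CPM. Both were thus detected in A7.4, the mother cell type of A8.7, and not in A8.7. KH.C9.766 averaged 13.5 ± 7.65 CPM in A5.1, 0.675 ± 0.602 CPM in A6.2, 1.51 ± 1.53 CPM in A7.4 and 31.9 ± 18.9 CPM in A8.7. KH.C5.507 stayed at or below 0.378 ± 0.252 CPM in A5.1, A6.2 and A7.4 and averaged 20.5 ± 13.8 CPM in A8.7, the highest of these neural-side cell types, with 25.6 ± 14.99 CPM in A8.5.

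**Figure D3:**
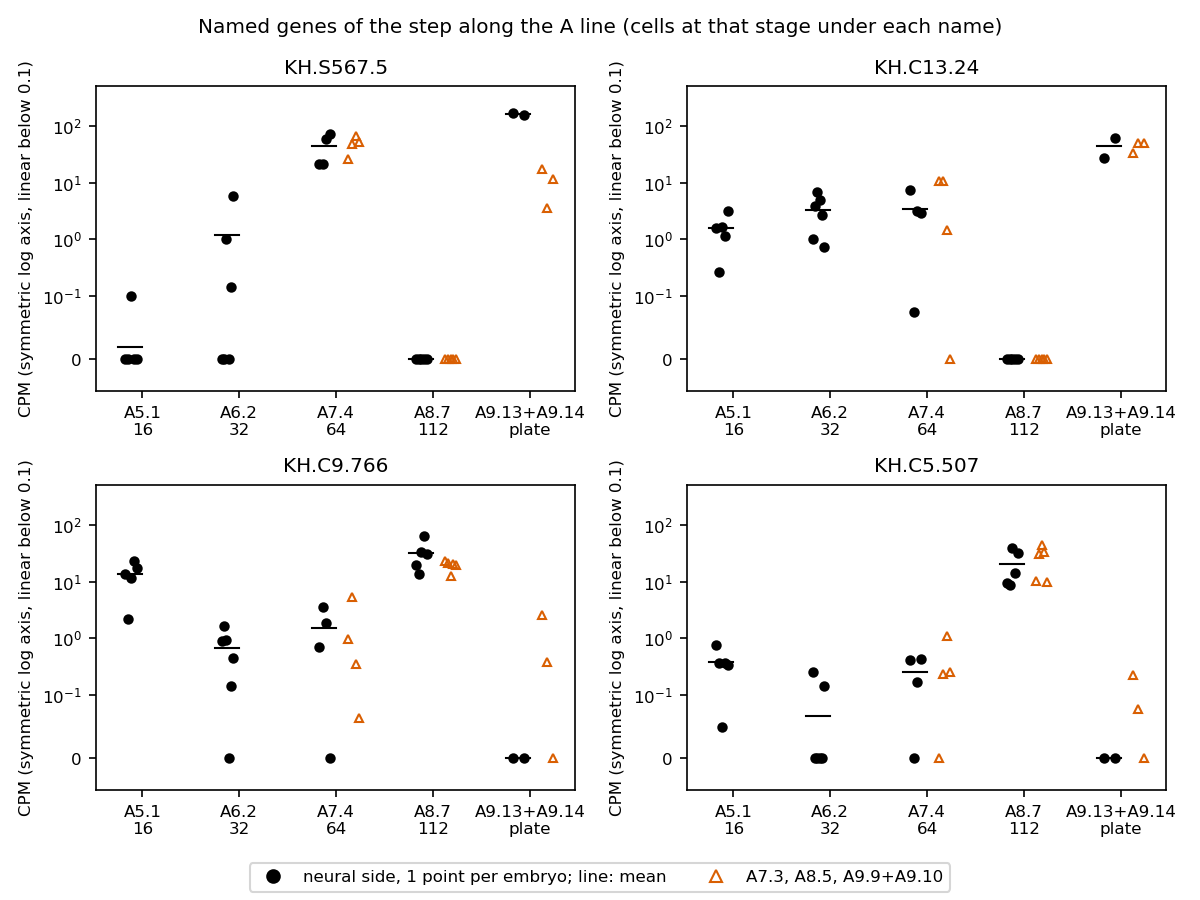
CPM of the 4 named genes (vertical symmetric log axis, linear below 0.1) along the A line, 1 point per embryo, with the mean as a line for the neural side; triangles are A7.3, A8.5 and A9.9+A9.10. KH.S567.5 and KH.C13.24 are at 0 in all 112-cell samples shown, and KH.C9.766 and KH.C5.507 are at 0 in both A9.13+A9.14 embryos.

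The level of the called genes in A8.7 was also set beside both neighbouring stages. A8.7 had the lowest mean of A7.4, A8.7 and A9.13+A9.14 for 51 of the 86 higher genes (59.3%, against 29.7% of all genes tested), and lay at least 4-fold below both for 12 (14.0%, against 2.09%). A8.7 had the highest mean for 59 of the 76 lower genes (77.6%, against 30.8%), and lay at least 4-fold above both for 8 (10.5%, against 1.70%). By the call itself, A8.7 lies below A9.13+A9.14 for each higher gene and above it for each lower gene. The genes tested as a whole include both directions, so their shares are not a like background. These shares describe the lists and test nothing. In the notochord-fated A8.5, from the same embryos, 10 of the 12 dips and 5 of the 8 peaks met the same 4-fold condition between its own neighbours, which 2.11% of all genes tested met as a dip and 2.38% as a peak. In a8.19 this held for 3 of the 12 dips and 3 of the 8 peaks (2.15% and 1.88% of all genes tested), and in a8.22 for 2 of the 12 and 3 of the 8 (2.18% and 1.68%). The labels do not give the parents or the egg batch of an embryo, and a part of the embryo set in these dips and peaks was not tested.

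Most genes of the step changed the same way in the other lineages. A fit of 8 cell types covered both stages of 4 lineages (29 embryo samples). Of the 86 higher genes, 81 were also called higher from A8.7 to A9.13+A9.14 in this fit (1.6% of all genes tested were), and of the 76 lower genes 71 were called lower (1.03%), which the choice of the genes largely sets. The step from A8.5 to A9.9+A9.10 had 72 of the 86 higher genes called higher (83.7%, against 6.11% of genes tested). It had 69 of the 76 lower genes called lower (90.8%, against 4.55%). These cells came from the embryos of the A-line neural side, with 1 more embryo in A9.9+A9.10. The a-line neural side, from a8.19 to a9.37+a9.38, had 61 of the 86 called higher (70.9%, against 4.09%) and 56 of the 76 called lower (73.7%, against 3.52%), with 1 of the 76 called higher. The epidermis-fated side, from a8.22 to a9.43+a9.44, had 56 of the 86 called higher (65.1%, against 4.65%) and 62 of the 76 called lower (81.6%, against 4.14%), again with 1 of the 76 called higher. The a-line libraries share none with the A-line step, and it is not given whether they share embryos.

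Median log2 fold changes of the 86 genes were 1.58 in the notochord-fated step, 1.23 in the a-line neural step and 1.49 in the epidermis-fated step. Those of the 76 genes were -1.73, -1.19 and -1.32. Called in all 3 other steps were 48 of the 86 and 52 of the 76 genes, against 1.70% and 1.46% of all genes tested. Called in none of the other steps were 7 higher genes and 2 lower genes. A missed call in another lineage does not show that its change differed.

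**Figure D4:**
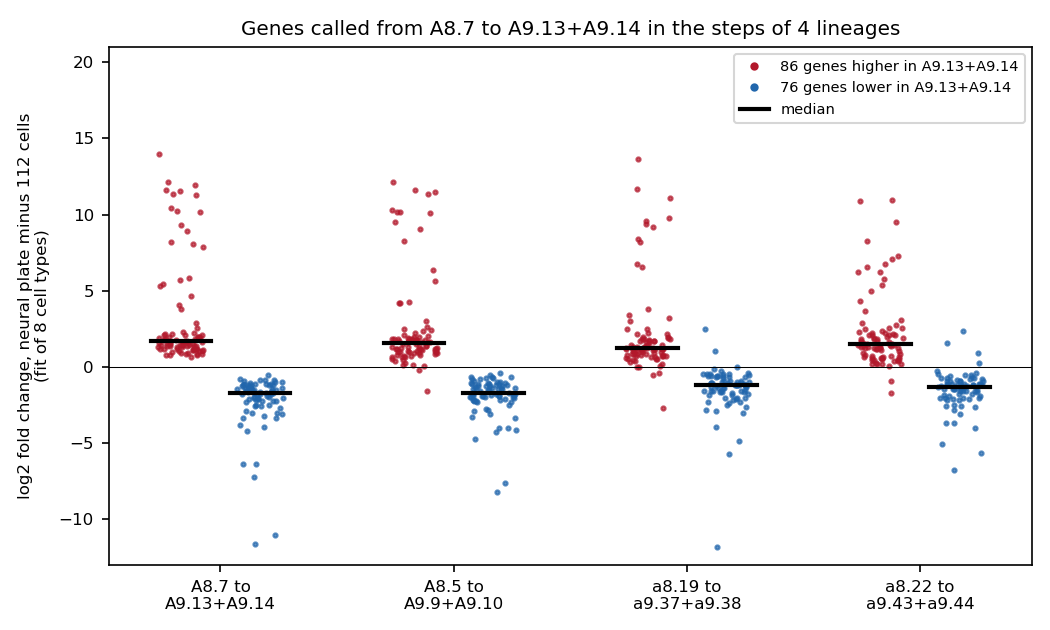
Log2 fold change from the 112-cell to the neural plate stage (vertical axis, fit of 8 cell types) of the 86 higher and 76 lower genes in the steps of 4 lineages, 1 point per gene and a bar at the median. In the first column the genes were chosen by this change; in the other 3 columns the medians are 1.58, 1.23 and 1.49 for the higher genes and -1.73, -1.19 and -1.32 for the lower genes.

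Among the named genes, KH.S567.5 went from 0.150 ± 0.299 CPM in a8.19 (n = 4) to 17.9 ± 6.81 CPM in a9.37+a9.38 (n = 3; edgeR adjusted p = 0.00436). It went from 0 in a8.22 (n = 4) to 20.1 ± 11.4 CPM in a9.43+a9.44 (n = 3; edgeR adjusted p = 5.04e-04). It thus rose in all 4 lineages. Its 2 A9.13+A9.14 embryos stood above all embryos of the other 3 plate-stage cell types, the highest of which was at 33.0 CPM. KH.S567.5 was chosen for its rise to A9.13+A9.14, which favours this order, and no test compared the plate-stage cell types. The difference of its step from the a-line neural step missed the threshold (edgeR adjusted p = 0.506). Its difference from the notochord-fated step could not be judged, since A8.7 and A8.5 both had no count (log2 difference 3.91 ± 6923 SE). KH.C13.24 reached 39.4 ± 25.8 CPM in a9.37+a9.38 from 0.0449 ± 0.0898 CPM in a8.19 (edgeR adjusted p = 0.00263). KH.C13.24 stood at 3.64 ± 5.42 CPM in a8.22 and 45.6 ± 21.7 CPM in a9.43+a9.44, and this step missed the threshold (edgeR adjusted p = 0.110).

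KH.C9.766 fell in all 4 lineages. It went from 39.0 ± 16.5 CPM in a8.19 to 0 in a9.37+a9.38 (edgeR adjusted p = 2.28e-04) and from 46.8 ± 8.28 CPM in a8.22 to 1.42 ± 2.29 CPM in a9.43+a9.44 (edgeR adjusted p = 0.00776). KH.C5.507 was near absent from the a line at 112 cells. Against 21.7 ± 14.6 CPM in A8.7 on this scale, it averaged 0.236 ± 0.267 CPM in a8.19 and, in a8.22, 1.14 ± 2.10 CPM, and in a9.37+a9.38 it stood at 0.165 ± 0.190 CPM (edgeR adjusted p = 0.919 for the a-line neural step). It had no count in a9.43+a9.44 (edgeR adjusted p = 0.0464 for the step from a8.22). The a8.22 mean rests on embryo 4, at 4.29 CPM, with the other 3 embryos at 0 to 0.202 CPM. The difference between the A-line and a-line neural steps for KH.C5.507 missed the threshold with edgeR (adjusted p = 0.506) and passed with DESeq2 (adjusted p = 0.0130).

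Whether a gene changed differently in the neural side than in the notochord-fated side was tested as the difference of the steps. Of 12078 genes, 0 passed with edgeR (0% called), with 484 at an unadjusted p below 0.05, while DESeq2 called 32 and limma voom 4. A fit that blocked the embryo also gave 0 genes. Among the 86 higher genes the median difference was 0.12 on the log2 scale, and 12 had an unadjusted p below 0.05 in edgeR. Among the 76 lower genes the values were -0.13 and 6. Of all 12078 genes 484 had such a p. The step that chose these genes is part of the difference, so the values of both lists describe the lists only. The test rests on 2 embryos of A9.13+A9.14, and a count of 0 does not show that the steps were alike.

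Against the a-line neural step, 3 of 13112 genes changed differently (0.0229%), with 855 at an unadjusted p below 0.05 in edgeR. They were KH.C14.71, KH.S1138.2 and KH.C3.16, and all 3 are named here because they are the whole count, a choice made after their values were seen. For each of them the lineages stood close to each other at the neural plate stage and apart at 112 cells. For all 3 genes the embryos of A8.7 and A8.5 did not overlap those of a8.19 and a8.22. The difference that chose these genes contains the levels of A8.7 and a8.19, which favours a split between them. How many of all genes tested split in this way was not counted, so the order describes these 3 genes only.

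KH.C14.71 rose far more in the A line. It stood at 3.09, 2.97, 1.81, 5.66 and 4.60 CPM in A8.7 embryos 2, 7, 3, 5 and 6 and at 201 and 218 CPM in the A9.13+A9.14 embryos. In a8.19 it stood at 47.0, 60.5, 38.4 and 62.5 CPM (embryos 1 to 4) and in a9.37+a9.38 at 286, 183 and 124 CPM. The A8.7 embryos all lay below the a8.19 embryos, and the plate-stage groups overlapped. The log2 fold change was 5.86 ± 0.39 SE in the A line (edgeR adjusted p = 7.42e-11) and 1.92 ± 0.35 in the a line (edgeR adjusted p = 7.43e-04), a difference of 3.94 ± 0.53 (edgeR adjusted p = 4.91e-04). The notochord-fated cells stood at 3.61 ± 0.924 CPM in A8.5 and 182 ± 21.5 CPM in A9.9+A9.10, close to the A-line neural side. The epidermis-fated cells stood at 67.4 ± 24.9 CPM in a8.22 and 204 ± 79.5 CPM in a9.43+a9.44. Earlier in the A line, KH.C14.71 averaged 226 ± 107 CPM (A5.1) and 212 ± 50.2 CPM (A7.4). With limma voom its difference missed the threshold (adjusted p = 0.0527).

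KH.S1138.2 rose in the A line in the fit of 8 cell types and had a lower plate-stage mean in the a line. In A8.7 it had reads in embryo 7 alone, at 0.991 CPM, and stood at 46.3 and 26.3 CPM in embryos 1 and 2 of A9.13+A9.14. In a8.19 it stood at 133, 112, 121 and 120 CPM and in a9.37+a9.38 at 28.4, 20.6 and 38.1 CPM. All a8.19 embryos lay above all other samples of these 4 cell types. The notochord-fated cells went from 0.0459 ± 0.103 CPM in A8.5 to 23.5 ± 17.4 CPM in A9.9+A9.10 (edgeR adjusted p = 3.93e-06). The epidermis-fated cells went from 112 ± 25.2 CPM in a8.22 to 21.6 ± 12.8 CPM in a9.43+a9.44 (edgeR adjusted p = 0.0768). The A-line step was 7.18 ± 0.93 on the log2 scale (edgeR adjusted p = 3.21e-05 in the fit of 8 cell types and 0.0576 in the fit of 4). The a-line step was -2.07 ± 0.83 and missed the threshold (edgeR adjusted p = 0.133), and the difference was 9.25 ± 1.32 (edgeR adjusted p = 8.76e-04). The size of both the A-line step and the difference rests on the 16 reads of A8.7 embryo 7: without that embryo A8.7 has no count, and the fitted difference of 13.78 (edgeR adjusted p = 2.70e-06) depends on the prior count. At earlier stages KH.S1138.2 averaged 44.6 ± 23.1 CPM in A5.1, 1.97 ± 2.15 CPM in A6.2 and 40.3 ± 26.2 CPM in A7.4. The A7.4 embryos ran from 1.82 to 58.9 CPM.

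KH.C3.16 stood at 112, 82.2, 124, 152 and 103 CPM in A8.7 embryos 2, 7, 3, 5 and 6 and at 32.6 and 45.4 CPM in A9.13+A9.14. In a8.19 it stood at 13.0, 6.57, 8.26 and 1.78 CPM and in a9.37+a9.38 at 40.99, 44.1 and 44.96 CPM, between the A9.13+A9.14 embryos. The notochord-fated cells went from 97.8 ± 14.2 CPM in A8.5 to 35.6 ± 15.8 CPM in A9.9+A9.10 (edgeR adjusted p = 0.0426). The epidermis-fated cells went from 15.6 ± 6.93 CPM in a8.22 to 34.0 ± 15.2 CPM in a9.43+a9.44 (edgeR adjusted p = 0.128). The A-line step of -1.55 ± 0.55 missed the threshold (edgeR adjusted p = 0.147), the a-line step was 2.55 ± 0.47 (edgeR adjusted p = 8.80e-04), and the difference was -4.10 ± 0.75 (edgeR adjusted p = 0.0335). This call was lost in 11 of 14 fits without 1 embryo, with adjusted p values of up to 1.00.

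**Figure D5:**
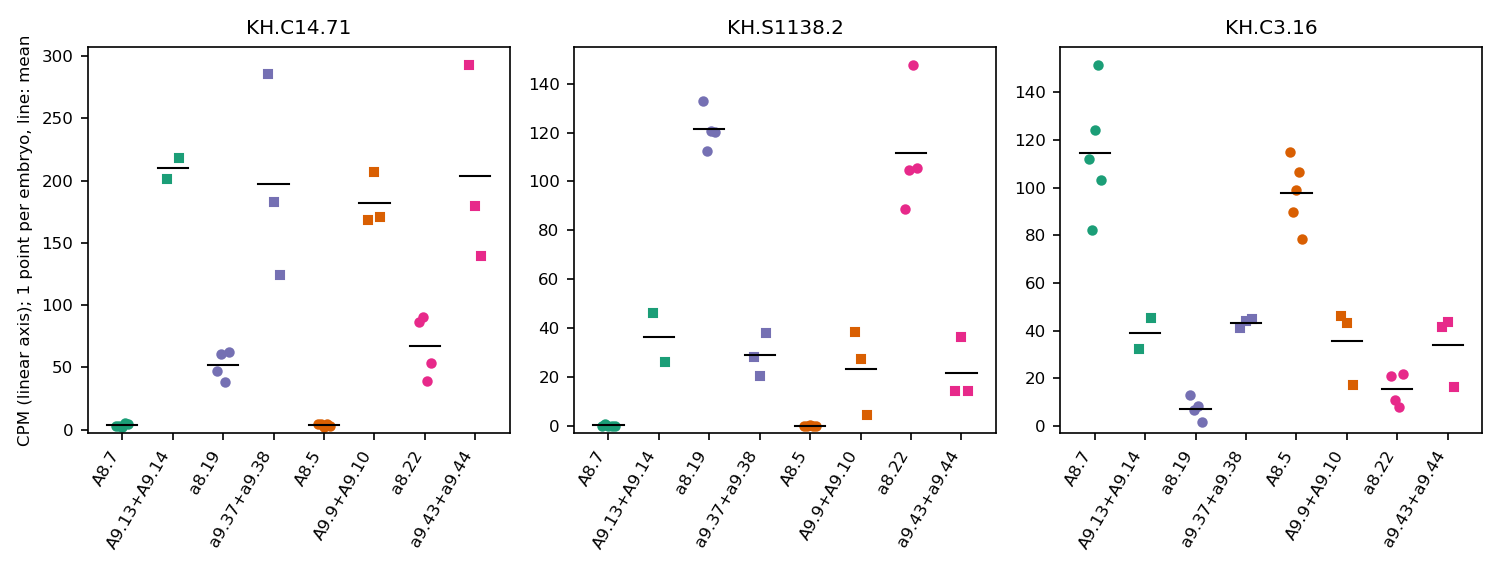
CPM (vertical linear axis) of KH.C14.71, KH.S1138.2 and KH.C3.16 in the 8 cell types of the 112-cell stage (circles) and the neural plate stage (squares), 1 point per embryo with the mean as a line. For each gene A8.7 stands apart from a8.19, and A9.13+A9.14 lies near a9.37+a9.38.

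The A9.13+A9.14 libraries come from columns 1 and 2 of the neural plate, and each of the 2 embryos gave both. Between column 2 and column 1, with the embryo as a block, 0 of 8588 genes passed with edgeR (0% called) and 361 had an unadjusted p below 0.05. The fit has 1 residual degree of freedom, so likeness of the columns is not shown. KH.S567.5 and KH.C13.24 had reads in all 6 libraries and KH.C9.766 and KH.C5.507 in 0 of 6. The choice of these genes for the step largely sets this, so their presence says nothing on the columns.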

How the data were processed

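Single cells were amplified with a SMARTer ultra low input kit and sequenced from Nextera XT libraries, single-end, per the labels' protocols. The authors deposited raw read counts per gene for 15287 gene models, and the submitters' processing notes name STAR 2.7.10a. For the counting program, genome build, annotation and use of strand the sources used here give nothing, so overlapping and near-identical genes are uncertain. There are no molecular identifiers, so counts are amplified reads and floors cover counting error only. Across the series 244 gene models were without a count.

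Counts were summed by embryo and cell type, filtered with edgeR's filterByExpr, scaled by TMM and tested with edgeR 4.0.16 (quasi-likelihood, robust) in R 4.3.3, with p-values adjusted by Benjamini-Hochberg. Standard errors come from the F statistic. Alternatives used DESeq2 1.42.0, limma 3.58.1 (voom), RLE factors, no filter, other sample sets and fits without 1 embryo. Per the labels, A8.7 and A8.5 share embryos, and likewise A9.9+A9.10 with A9.13+A9.14: deviations of A-line neural and notochord-fated samples of 1 embryo correlated at 0.0466 to 0.122 (mean 0.0924, 7 pairs). Within A8.7 and within A9.13+A9.14, no pair of libraries agreed within sampling noise. P-values measure the spread between these embryos, whose parents the labels do not give.

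Named genes passed the threshold with a mean of 5 CPM or more on the higher side and no overlap of embryos, and were ranked by absolute log2 fold change, with the first 2 per direction taken. Members, lists and rules were chosen with earlier results of these data known. Of the gene lists drawn up by symbol, 0 could be applied. The computation was tested on simulated data.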

Additional observations from a re-analysis of the deposited data

Results flagged for a closer look

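In 4 of the 30 groups of 4 to 10 embryos examined for the named genes, 1 embryo lay far from the rest. In 3 of them all other embryos had no count, so any reads in 1 embryo meet this condition and the chance rate of about 5% of groups does not apply to them. KH.S1138.2 stood at 0.991 CPM in A8.7 embryo 7 and at 0.229 CPM in A8.5 embryo 3, with no count in the other 4 embryos of each; these are 16 and 2 reads. KH.S567.5 stood at 0.1001 CPM in A5.1 embryo 6, where it had 2 reads and the other 4 had no count, and at 5.92 CPM in A6.2 embryo 6, above the other 5.

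The step of the A-line neural side differed from that of the a-line neural side for KH.C14.71, by 3.94 on the log2 scale, for KH.S1138.2, by 9.25, and for KH.C3.16, by -4.10, each by edgeR's test of the difference itself. A-line and a-line cells are not stated to share embryos, so the lineage and the embryo set cannot be told apart in these differences.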

How the results depend on the processing

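The count of 162 changed genes depends on the processing, with A9.13+A9.14 represented by 2 embryos. It was 17 to 149 in the fits without 1 embryo, 597 with DESeq2 (248 higher, 349 lower), 750 with limma voom (537 and 213), 52 in the fit of all A-line cell types (37 and 15), 502 in that fit without A6.1 of embryo 5 (253 and 249) and 345 in the fit of 8 cell types (210 and 135). Single libraries with the embryo as a random block, in limma voom, gave 1269 genes (785 and 484), including 159 of the 162. RLE factors gave 173, no filter 146 and the 2 groups alone 174. The median log2 fold change over all genes was 0.24 with voom. The difference from the notochord-fated step, 0 genes, was 32 with DESeq2, 4 with voom, 1 in the fit of 8 cell types, 0 with the embryo as a block, and 0 to 5 without 1 embryo (5 without A9.9+A9.10 embryo 2, 1 without A8.7 embryo 2). The difference from the a-line neural step, 3 genes, was 132 with DESeq2 (41 and 91), 12 with voom (7 and 5) and 2 to 6 without 1 embryo (6 without a8.19 embryo 4). The cause of these moves was not tested. The block changed no other call. For KH.C13.24 the difference from the notochord-fated step turned from 0.02 to -0.0278 with RLE factors, and ran from -0.72 to 0.49 without 1 embryo. For KH.C9.766 the difference from the a-line neural step turned from 0.20 to -0.84 with DESeq2 and -0.51 with voom, and ran from -0.0384 to 0.60 without 1 embryo. The adjusted p of both differences stayed at or above 0.984 with edgeR, DESeq2 and voom. Neither difference could be judged. KH.C13.24 had no count in A8.7 or A8.5 (SE 34.1), and KH.C9.766 had none in A9.13+A9.14 or a9.37+a9.38 (SE 320). The difference from the notochord-fated step for KH.C9.766 passed with DESeq2 (adjusted p = 0.0482), against an adjusted p of 1.00 with edgeR, whose fits without 1 embryo gave 0.329 to 1.00; DESeq2 was not run without 1 embryo. The counts of called genes in the other lineages and at earlier stages moved by less than 1.5 times under RLE factors, no filter, 2 CPM as the detection level and scaling without A6.1 of embryo 5, alternatives chosen after seeing the data. No fit without 1 embryo could be made for the plate columns, where RLE factors, no filter, no replicate block and single libraries each gave 0 genes. Depth limits embryo 1 of A9.13+A9.14 most, which holds the shallowest of the 13 libraries.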

Other observations

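The number of genes detected per cell, brought to 1400000 reads per library, was higher in A9.13+A9.14 than in A8.7. It was 9857 ± 270 in A8.7 (SD over embryo means, n = 5, 9504 to 10177) and 10313 ± 32.9 in A9.13+A9.14 (n = 2, 10289 to 10336), so the embryo means did not overlap. The single cells did overlap, with the lowest A9.13+A9.14 library at 10063 and the highest A8.7 library at 10309. As embryo means, a8.19 stood at 9525 to 9776 and a9.37+a9.38 at 9972 to 10038, and a8.22 at 9575 to 9797 and a9.43+a9.44 at 10174 to 10432. The notochord-fated A8.5 and A9.9+A9.10 overlapped, at 9347 to 9927 and 9375 to 9891. This measure was chosen after the data were seen, no test was run, and its part in the higher and lower genes of the step was not tested.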
